A study of Mus musculus with 4 samples.

Results

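Polycomb proteins and the enzymes that write or erase lysine methylation on histone H3 were followed in mouse T helper 2 (Th2) cells given dopamine. The set was a fixed list of 42 genes: subunits of the Polycomb repressive complexes PRC1 and PRC2, lysine methyltransferases and lysine demethylases. All 42 were among the 26207 genes of the deposited table. They were listed by function, with earlier results of these data known. The tested libraries were 2 from Th2 cells treated with 10 µM dopamine, here dopamine A and dopamine B, and they were set against 2 from Th2 cells given PBS, here PBS A and PBS B. Spleen is the stated tissue, and the labels give no strain, age, sex or treatment time. Whether the libraries within each group stem from different mice or cultures is not stated, so the p-values reflect only how these 4 libraries vary, and that variation may be technical.

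PRC2 places methyl groups on H3K27 through its catalytic subunit, which is either Ezh2, the main form in dividing cells, or Ezh1, the form known for resting cells. Eed and Suz12 are needed for its activity, and Rbbp4 and Rbbp7 bind histones. PRC1 attaches ubiquitin to histone H2A through Ring1 or Rnf2, and its Cbx subunits read H3K27 methylation. Kdm6a and Kdm6b remove that mark, whereas the Kmt2 and Setd1 enzymes write H3K4 methylation, which marks enhancers and promoters. In helper T cells Polycomb proteins are known to restrain cytokine and lineage factor genes, and loss of Ezh2 is known to raise cytokine output of Th1 and Th2 cells.

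Depth was 14167357 and 11492182 reads assigned to genes in dopamine A and dopamine B, and 5717408 and 13241168 in PBS A and PBS B. Values are the authors' normalized counts, which are read counts divided by 1 size factor per library. Log2 fold changes were computed on the log2(value + 1) scale as the dopamine mean less the PBS mean, and adjusted p-values are from limma with Benjamini-Hochberg adjustment over all 26207 genes, 2-sided, with a threshold of 0.05. The choice of scaling mattered. There were 8492 abundant genes, meaning a mean normalized count of 100 or more. Their median log2 fold change was 0.20 with the deposited values, and 0.003 once the libraries were rescaled on the abundant genes. For all genes the median was -0.08 with the deposited values and -0.26 once rescaled. For the members, a call that rescaling ended or made is given beside the main one. The 8 helper T cell markers checked were abundant, with a summed level of 33016 and 34012 in dopamine A and dopamine B against 28776 and 31000 in PBS A and PBS B. Of these markers 4 rose and 1, Trac, fell (log2 fold change -0.27). After rescaling 1 rose and 1 fell. Among 28 measured markers of basophils, platelets, red cells and myeloid cells, 22 fell and 0 rose, with a summed level of 1658 and 1501 with dopamine against 5166 and 4531 with PBS. Of 8 B cell markers 4 rose and 0 fell (421 and 406 with dopamine, 204 and 161 with PBS), and of 7 CD8 T and NK cell markers 2 rose and 0 fell (545 and 519 with dopamine, 296 and 248 with PBS). The part that these other cell types play in the results was not tested. The deposited table holds no gene with fewer than 8 reads over the 4 libraries, so a marker without reads would be missing from it. In bulk RNA, fewer cells of a type and less RNA per cell cannot be told apart.

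With the deposited scaling the enzymes and subunits changed little in either direction. The highest log2 fold change was 0.47 (1.38-fold) for Dot1l and the lowest was -0.50 (0.709-fold) for Cbx8, so 0 of 42 passed 0.5 in size, against 18.0% of abundant genes. The cutoff lies just above the size of the Cbx8 change (-0.496). The count holds for limma on log2(value + 1) with the deposited scaling. In the authors' deposited DESeq2 values Cbx8 stood at -0.507, past the cutoff. After rescaling Cbx8 (-0.69), Kdm3a (-0.66) and Kdm4b (-0.64) passed it, as they did in edgeR with TMM scaling (-0.62, -0.57 and -0.62). With a correction for gene length and GC content Kmt2d (0.75), Dot1l (0.56), Kmt2a (0.54), Setd1a (0.501) and Cbx8 (-0.55) did. The share of all genes past 0.5 in those settings was not computed. With limma 12 of 42 members (28.6%) were called higher and 3 (7.14%) lower, where 14.3% of all genes tested were called higher and 7.00% lower. The members are abundant, however: 37 of them passed a mean of 100. Of these 37, 12 (32.4%) were called higher and 3 (8.11%) lower, beside 39.1% and 7.90% of all genes of that abundance. The difference between these shares was not tested. The median log2 fold change was 0.14 over the 42 members, -0.08 over all genes and 0.20 over abundant genes. Both dopamine libraries lay above both PBS libraries for 22 members (background 28.5% of all genes) and below them for 8 (background 30.4%). Among the 37 abundant members these numbers were 19 (51.4%) and 7 (18.9%), with backgrounds of 60.8% and 15.4%.

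The number of members called in each direction changed with the scaling and the tool. After rescaling on abundant genes 1 member was higher and 10 were lower, and all 11 were abundant themselves. The background was 6.90% higher and 12.1% lower over all genes, and 18.7% and 18.8% over genes of that abundance. With edgeR on recovered reads, its filter and TMM scaling, 5 were higher and 8 lower (background 18.2% and 15.8%). TMM scaling within limma, over all genes without a filter, gave 10 and 4, as did edgeR with TMM and no filter. Of all genes, 5510 were called with TMM in limma and 5537 with edgeR and no filter. The share called in each direction was not computed for these fits. What made the counts move was not tested. With edgeR and upper-quartile scaling 2 were higher and 11 lower (background 13.1% and 20.5%). In the authors' deposited table, 7 of the members had an adjusted p below 0.05, 6 of them higher, with backgrounds of 19.6% higher and 5.53% lower. The higher ones were Ezh2, Eed, Rbbp7, Bmi1, Kmt2d and Ehmt2, and Kdm3a was lower. Mtf2, Ring1, Ehmt1, Suv39h1, Nsd1 and Dot1l, called higher in the main test, did not pass there. Leaving out a library leaves 1 in its group, which is then assumed to vary like the other group, and the smaller n alone can end a call. Without dopamine B 3 members were called higher (background 8.55%), without PBS A 3 (background 8.21%) and without PBS B 7 (background 12.2%). The number called lower was 1 without dopamine A (background 5.30%) and 1 without PBS B (background 4.15%). With the correction for gene length and GC content 21 were called higher (background 38.0%). Among them were Suz12 (0.18), Kmt2a, Kmt2b, Kdm1a (0.21), Kdm5a, Kdm5c (0.29), Suv39h2 (0.36), Kdm3b (0.35) and Kdm4a (0.21), none of which passed in the main test.

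**Figure D1:**
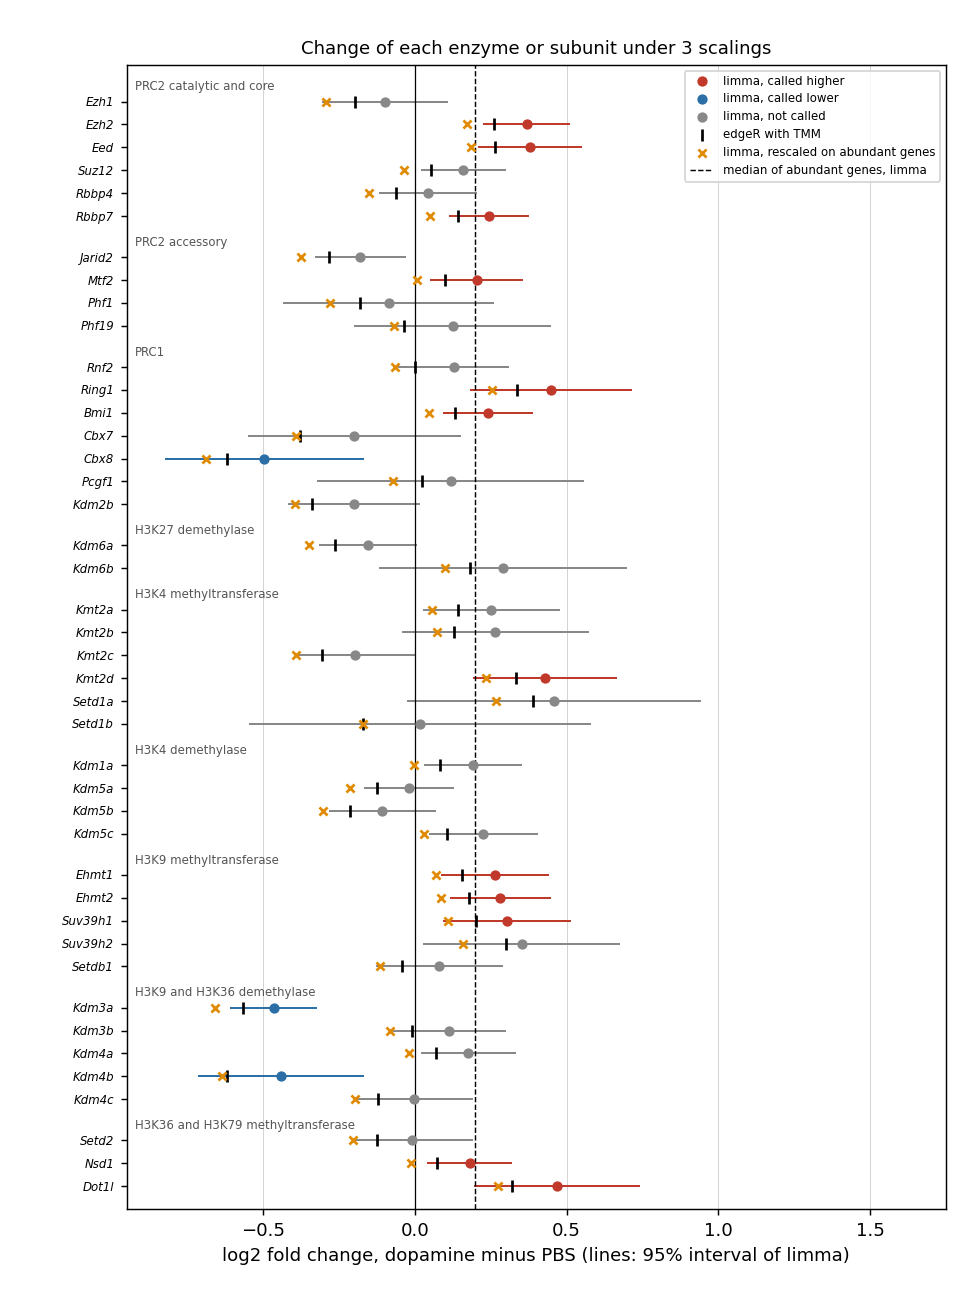
Log2 fold change (dopamine minus PBS, x axis) of the 42 members by role. Points and lines are limma's estimates with their 95% intervals, bars are edgeR with TMM, crosses are limma after rescaling on abundant genes, and the dashed line is the median of abundant genes at 0.20. Ezh2 stays right of 0 and Kdm3a, Cbx8 and Kdm4b left of 0 under each of the 3 scalings.

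The calls least dependent on the processing were Ezh2, higher, and Kdm3a, lower. These 2 members were called in the same direction in the main test and in all 16 alternatives. Cbx8 and Kdm4b were lower under every scaling, but lost the call with DESeq2 and when some single libraries were left out. To show the members called in every alternative and the member with the lowest log2 fold change, the 250 bases before the most upstream RefSeq start site of Ezh2, Kdm3a and Cbx8 are shown (GRCm38.p6, minus strand for each: Ezh2 at chr6:47595031-47595280, Kdm3a at chr6:71632918-71633167, Cbx8 at chr11:119040914-119041163).
Ezh2: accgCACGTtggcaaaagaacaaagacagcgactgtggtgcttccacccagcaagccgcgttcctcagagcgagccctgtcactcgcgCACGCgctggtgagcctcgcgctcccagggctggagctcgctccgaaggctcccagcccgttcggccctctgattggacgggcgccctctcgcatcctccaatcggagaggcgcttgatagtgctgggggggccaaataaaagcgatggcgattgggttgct
Kdm3a: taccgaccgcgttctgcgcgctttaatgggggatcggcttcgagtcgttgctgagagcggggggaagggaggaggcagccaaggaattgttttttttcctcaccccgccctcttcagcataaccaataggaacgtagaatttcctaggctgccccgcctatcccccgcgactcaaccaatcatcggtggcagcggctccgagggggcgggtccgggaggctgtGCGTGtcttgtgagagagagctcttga
Cbx8: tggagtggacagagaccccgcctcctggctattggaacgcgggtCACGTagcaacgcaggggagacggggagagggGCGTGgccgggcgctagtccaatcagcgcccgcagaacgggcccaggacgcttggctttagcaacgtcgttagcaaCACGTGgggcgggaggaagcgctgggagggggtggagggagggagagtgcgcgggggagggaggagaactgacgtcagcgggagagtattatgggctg
Capitals mark the core of the hypoxia response element, ACGTG or GCGTG, searched on both strands. This word was chosen because Kdm3a and Kdm4b are known as genes that low oxygen induces. The Kdm3a window held 1 match, 23 bases before the start, the Ezh2 window held 2, and the Cbx8 window held 4, of which 2 overlap in a CACGTG. Such a match was present in 38.6% of 27025 RefSeq promoter windows and in 22 of the 34 member windows in the table (64.7%). Both words hold a CG, and the windows were not matched for GC content or expression. GC content was 63.6% in the Ezh2 window, 59.6% in that of Kdm3a and 66.4% in that of Cbx8. The difference between the shares was not tested. A match is a description of these letters and not a binding site. GENCODE places the starts of Ezh2, Kdm3a and Cbx8 farther upstream than the RefSeq starts used for the windows. The Ezh2 window thus lies inside the GENCODE gene, and the Kdm3a and Cbx8 windows do in part, the Kdm3a match included. An E2F word, TTTNNCGC with C or G at each N, was also searched on both strands. It was in the windows of 2 of 34 members, Suz12 and Phf19, and in 1.92% of all windows. No window of Kdm4b was in the table used.

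Within PRC2, the catalytic subunit Ezh2 and its partner Eed rose, and Ezh1 did not. Ezh2, on chromosome 6 from 47530139 to 47595341, had 2764 and 2909 normalized counts with dopamine, against 2134 and 2262 with PBS. Both dopamine libraries lay above both PBS libraries, and the log2 fold change was 0.37 (SE 0.07, adjusted p = 5.46e-05 by limma), or 0.17 after rescaling on abundant genes (adjusted p = 0.0368). Eed, the subunit that binds methylated H3K27, had 1266 and 1265 with dopamine against 912 and 1037 with PBS, which differ by 0.38 on the log2 scale (SE 0.08, adjusted p = 4.87e-04 by limma). The groups did not overlap, but the call ended without PBS A (log2 fold change 0.29, adjusted p = 0.0678) and after rescaling (0.18, adjusted p = 0.0749). Rbbp7, the histone-binding subunit that PRC2 shares with other chromatin complexes, rose to 3762 and 3695 with dopamine, against 3154 and 3139 with PBS (log2 fold change 0.24, adjusted p = 0.00386 by limma). Its change after rescaling was 0.05, and the call also ended without PBS A or PBS B. Suz12, the scaffold of the complex, had 2990 and 2944 with dopamine against 2584 and 2729 with PBS, which did not pass (log2 fold change 0.16, 95% interval 0.02 to 0.30, adjusted p = 0.0851 by limma). Rbbp4, the paralog of Rbbp7, had overlapping groups and a log2 fold change of 0.04 (95% interval -0.11 to 0.20). Ezh1 had 445 and 446 with dopamine against 479 and 474 with PBS. Its libraries were lower with dopamine but the difference did not pass (log2 fold change -0.10, 95% interval -0.30 to 0.11), and it was called lower after rescaling (-0.29, adjusted p = 0.023 by limma).

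The accessory subunits of PRC2 went different ways. Mtf2, a Polycomb-like protein that guides PRC2 to DNA, had 1897 and 1837 normalized counts with dopamine, against 1587 and 1657 with PBS. It was called higher (log2 fold change 0.20, adjusted p = 0.042 by limma), but the change after rescaling was 0.01, and the call ended when any one of the 4 libraries was left out. Jarid2, which recruits PRC2 and defines the other form of the complex, had 1699 and 1781 with dopamine against 2003 and 1941 with PBS. All of its dopamine values lay below its PBS values. The log2 fold change of -0.18 missed the threshold (adjusted p = 0.0712 by limma), and Jarid2 was called lower with edgeR's TMM (-0.28) and after rescaling (-0.38, adjusted p = 3.53e-05 by limma). With the length and GC correction it stood at -0.04 (adjusted p = 0.656 by limma). Phf1 and Phf19, the other Polycomb-like proteins, were at 94.9 to 141 normalized counts in dopamine libraries and 100.4 to 139 in PBS libraries, and were called in no fit. Phf1 shares 1370 exonic bases with Cuta on the opposite strand.

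Among PRC1 subunits Ring1 and Bmi1 rose and Cbx8 fell. Ring1, a ubiquitin ligase of the complex, had 235 and 261 normalized counts with dopamine, against 175 and 188 with PBS (log2 fold change 0.45, SE 0.13, adjusted p = 0.00951 by limma). Its groups did not overlap, and the call ended after rescaling (0.26) and without dopamine B (0.37) or PBS A (0.40). Rnf2, the other ligase, had 989 and 1003 with dopamine against 827 and 1004 with PBS, groups that overlap (0.13, adjusted p = 0.333 by limma). Bmi1, the partner that activates the ligase in canonical PRC1, rose to 2284 and 2249 with dopamine, against 1840 and 2000 with PBS (0.24, adjusted p = 0.0116 by limma), a call that ended after rescaling (0.05). It also ended without dopamine A, dopamine B or PBS A. Cbx8, a reader of H3K27 methylation, on chromosome 11 from 119036305 to 119040969, fell to 94.1 and 109.7 with dopamine, against 138 and 150 with PBS. The log2 fold change was -0.50 (SE 0.16, adjusted p = 0.0211 by limma) and -0.69 after rescaling, and the call ended without dopamine A (-0.39), PBS A (-0.56) or PBS B (-0.43). These values rest on 81 to 196 reads per library. Cbx7, another reader, had 95.7 and 108.8 with dopamine and 100.2 and 137 with PBS, with overlapping groups (-0.20, 95% interval -0.55 to 0.15). Kdm2b, which brings a variant PRC1 to CpG islands, had a log2 fold change of -0.20 with overlapping groups and was called lower after rescaling (-0.40). Pcgf1, its partner in that complex, was at 53.6 to 61.2 in all libraries and was called in no fit.

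Neither H3K27 demethylase passed in the authors' scaling. Kdm6a, the X-linked and broadly expressed enzyme, had 1263 and 1239 normalized counts with dopamine, against 1344 and 1443 with PBS. The groups did not overlap, the log2 fold change was -0.15 (95% interval -0.31 to 0.00, adjusted p = 0.166 by limma), and the gene was called lower after rescaling (-0.35, adjusted p = 2.64e-04). With the length and GC correction it stood at -0.08. Kdm6b, the form known to be induced by activation signals, had 77.9 and 70.9 with dopamine against 57.8 and 63.6 with PBS. It did not pass (0.29, 95% interval -0.12 to 0.70), from 34 to 101 reads per library.

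Of the H3K4 methyltransferases, Kmt2d rose. This enzyme, also called MLL4, methylates histones at enhancers and lies on chromosome 15 from 98831669 to 98871204. It had 338 and 344 normalized counts with dopamine against 255 and 251 with PBS, with groups well apart (log2 fold change 0.43, SE 0.12, adjusted p = 0.00521 by limma). The call ended after rescaling (0.23, adjusted p = 0.128) and without dopamine B (0.42, adjusted p = 0.0663). The length and GC correction gave a larger change, 0.75. Kmt2c, its close relative at enhancers, had 538 and 535 with dopamine against 595 and 637 with PBS. Its groups did not overlap either, in the opposite direction (-0.20, adjusted p = 0.145 by limma), and rescaling made it a call (-0.39, adjusted p = 9.52e-04). With the length and GC correction it stood at 0.13, so its direction depends on the processing. Kmt2a had 391 and 388 with dopamine against 316 and 339 with PBS, and Kmt2b had 149 and 162 with dopamine against 119 and 140 with PBS. Neither passed (0.25 for Kmt2a and 0.27 for Kmt2b), although the groups did not overlap. Both were called higher with the length and GC correction (0.54 for Kmt2a with an adjusted p of 7.76e-06, 0.38 for Kmt2b with an adjusted p of 0.0281, both by limma). Setd1a (0.46) and Setd1b (0.02) were at 28.9 to 57.9 normalized counts in the 4 libraries and were called in no fit. Setd1a shares 3523 exonic bases with a gene annotated on the same strand, so its reads are uncertain.

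No H3K4 demethylase passed. Kdm1a (LSD1) had 1378 and 1479 normalized counts with dopamine, against 1209 and 1293 with PBS (log2 fold change 0.19, adjusted p = 0.0791 by limma). Kdm5c, an X-linked enzyme, had 1011 and 1107 with dopamine against 843 and 971 with PBS (0.23, adjusted p = 0.0583 by limma), and it was called higher without PBS B (0.33). In both the dopamine values lay above the PBS values. Kdm5a (-0.02, 95% interval -0.16 to 0.12) and Kdm5b (-0.11, 95% interval -0.28 to 0.07) had overlapping groups. Both were called lower after rescaling (-0.21 for Kdm5a and -0.30 for Kdm5b). Kdm5a was called higher with the correction for length and GC content (0.17), so its direction depends on the processing.

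Writers of H3K9 methylation, the mark of heterochromatin and of silenced genes, included 3 called higher in the authors' scaling, and none of these 3 was called after rescaling. Ehmt2 (G9a) had 1502 and 1829 normalized counts with dopamine, against 1337 and 1390 with PBS (log2 fold change 0.28, adjusted p = 0.00907 by limma). Its partner Ehmt1 (GLP) had 953 and 1038 with dopamine against 800.1 and 857 with PBS (0.26, adjusted p = 0.0227 by limma). The call of Ehmt2 ended without dopamine B, PBS A or PBS B, and so did that of Ehmt1. Suv39h1, which writes trimethylation in heterochromatin and helps keep Th2 cells from expressing Th1 genes in mice, had 481 and 494 with dopamine against 391 and 399 with PBS (0.30, adjusted p = 0.0283 by limma). Leaving out any one library ended that call. After rescaling the log2 fold change was 0.09 for Ehmt2, 0.07 for Ehmt1 and 0.11 for Suv39h1. Suv39h2 had 150 and 155 with dopamine against 139 and 103 with PBS (0.35, adjusted p = 0.113 by limma), and Setdb1 had overlapping groups (0.08). Suv39h1 shares 767 exonic bases with an annotated antisense gene and Suv39h2 shares 357 with Dclre1c.

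The enzymes that remove H3K9 methylation included the firmest fall of the set. Kdm3a, which removes mono- and dimethylation and lies on chromosome 6 from 71588972 to 71632990, had 2037 and 1928 normalized counts with dopamine, against 2737 and 2738 with PBS. The groups were far apart, and the log2 fold change was -0.47 (SE 0.07, adjusted p = 9.75e-07 by limma) and -0.66 after rescaling. It ranged from -0.66 to -0.38 over the 16 alternatives, all of which called it lower. Its paralog Kdm3b had 925 and 1095 with dopamine against 858 and 1010 with PBS, groups that overlap (0.11, 95% interval -0.07 to 0.30). Kdm4b, which acts on trimethylated H3K9 and H3K36 and lies on chromosome 17 from 56326062 to 56402870, had 212 and 219 with dopamine against 246 and 349 with PBS. It fell by 0.44 on the log2 scale (SE 0.13, adjusted p = 0.0129 by limma), but PBS B is far above PBS A, and without PBS B the log2 fold change was -0.19 (adjusted p = 0.364). Without dopamine A the call ended as well (-0.42, adjusted p = 0.0579). Kdm4a had 1602 and 1718 with dopamine against 1444 and 1493 with PBS and did not pass (0.18, adjusted p = 0.0944 by limma). Kdm4c showed no detectable difference (0.00, 95% interval -0.19 to 0.19).

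Among writers of H3K36 and H3K79 methylation, Dot1l had the highest log2 fold change of all members. This enzyme of H3K79, on chromosome 10 from 80755206 to 80795461, had 241 and 270 normalized counts with dopamine against 165 and 205 with PBS. The groups did not overlap (log2 fold change 0.47, SE 0.13, adjusted p = 0.0082 by limma), but the call ended after rescaling (0.27, adjusted p = 0.12) and without dopamine B (0.39) or PBS A (0.31). Nsd1, which writes H3K36 dimethylation, had 2904 and 2960 with dopamine against 2507 and 2668 with PBS. It passed narrowly (0.18, adjusted p = 0.0493 by limma), lost the call when any library was left out, and had a change of -0.01 after rescaling and 0.46 with the length and GC correction. Setd2, the enzyme of H3K36 trimethylation on transcribed genes, had 575 and 583 with dopamine against 549 and 618 with PBS, with overlapping groups (-0.01, 95% interval -0.20 to 0.19).

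Ratios between members within a library do not depend on library scaling. They were taken from reads per kilobase of merged exon, over 16 pairs of paralogs or of opposing enzymes. The pairs were chosen after the values were seen, so the ratios are descriptions with no test. Both dopamine libraries lay above both PBS libraries in 8 pairs and below them in 4, and 4 pairs overlapped. The share over other gene pairs was not computed, and only some of the pairs are described here. With 2 libraries against 2, an exact permutation test cannot go below p = 0.333. The Ezh2 to Ezh1 ratio was 6.92 and 7.27 with dopamine against 4.96 and 5.31 with PBS. The ratio of the methyltransferase Ezh2 to the demethylase Kdm6a was 2.75 and 2.95 with dopamine against 1.99 and 1.97 with PBS. In each of these pairs the dopamine libraries were the higher ones. The Kmt2d to Kmt2c ratio was 0.639 and 0.654 with dopamine against 0.436 and 0.401 with PBS. That of Mtf2 to Jarid2, which belong to different forms of PRC2, was 1.90 and 1.76 with dopamine against 1.35 and 1.46 with PBS. Both again stood higher in the dopamine libraries. The Kdm3a to Kdm3b ratio was lower, at 3.77 and 3.02 with dopamine against 5.47 and 4.65 with PBS. So was that of Kdm6a to Kdm6b, at 13.4 and 14.5 with dopamine against 19.3 and 18.8 with PBS. By contrast the Ehmt2 to Ehmt1 ratio (2.33 and 2.61 with dopamine, 2.47 and 2.40 with PBS) and the Kmt2a to Kmt2b ratio (1.51 and 1.38 with dopamine, 1.53 and 1.39 with PBS) overlapped between groups. With 2 libraries a group, small differences in those proportions were not detectable.

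**Figure D2:**
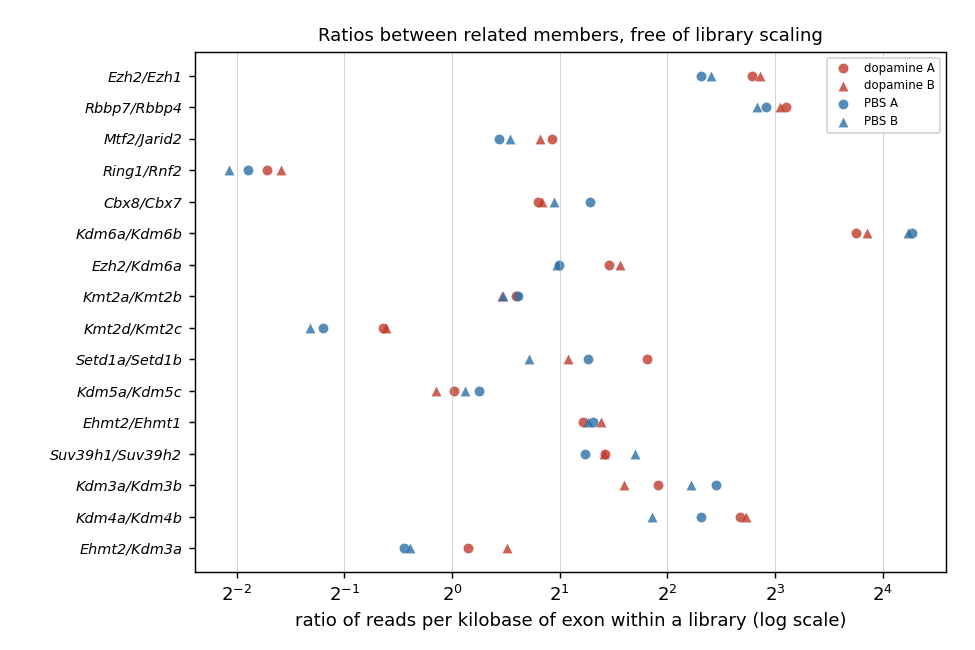
Ratio of reads per kilobase of exon between 2 members within each library (x axis, log scale), with dopamine libraries in red and PBS libraries in blue. The Ezh2/Ezh1 ratio is 6.92 and 7.27 with dopamine against 4.96 and 5.31 with PBS, while Kmt2a/Kmt2b overlaps.

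The members spanned a wide range of levels, given here as normalized counts per kilobase of merged exon, a length that includes exons a cell may not use. Rbbp7 was highest, at 1282 with dopamine against 1082 with PBS (group means), followed by Suz12 (600.01 with dopamine, 537 with PBS), Bmi1 (570.3 with dopamine, 483 with PBS) and Ezh2 (425 with dopamine, 329 with PBS). Mtf2 (328 with dopamine, 285 with PBS) and Eed (331 with dopamine, 255 with PBS) followed among PRC2 subunits. With PBS Kdm3a (241 with dopamine, 333 with PBS) stood just above Ezh2, and with dopamine well below it. Core PRC2 subunits other than Ezh1 thus stood at higher levels than Ezh1, which was at 59.9 with dopamine and 64.1 with PBS. Ezh1 still had 282 to 619 reads per library. At the low end were the H3K4 writers Setd1a (7.90 with dopamine, 5.69 with PBS) and Setd1b (2.94 with dopamine, 2.91 with PBS), together with Kdm6b (10.7 with dopamine, 8.73 with PBS). Setd1b rests on 17 to 54 reads per library, so small changes in it were not detectable at this depth. Of the 42 members 20 share exonic bases with another annotated gene, 10 of them with a protein-coding gene on the opposite strand. Ezh2 shares 174 bases with the lincRNA Gm26625. The labels and notes do not name the strand setting of the counting, so such reads may not have been told apart. Kdm3a, Cbx8 and Kdm4b share none.

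**Figure D3:**
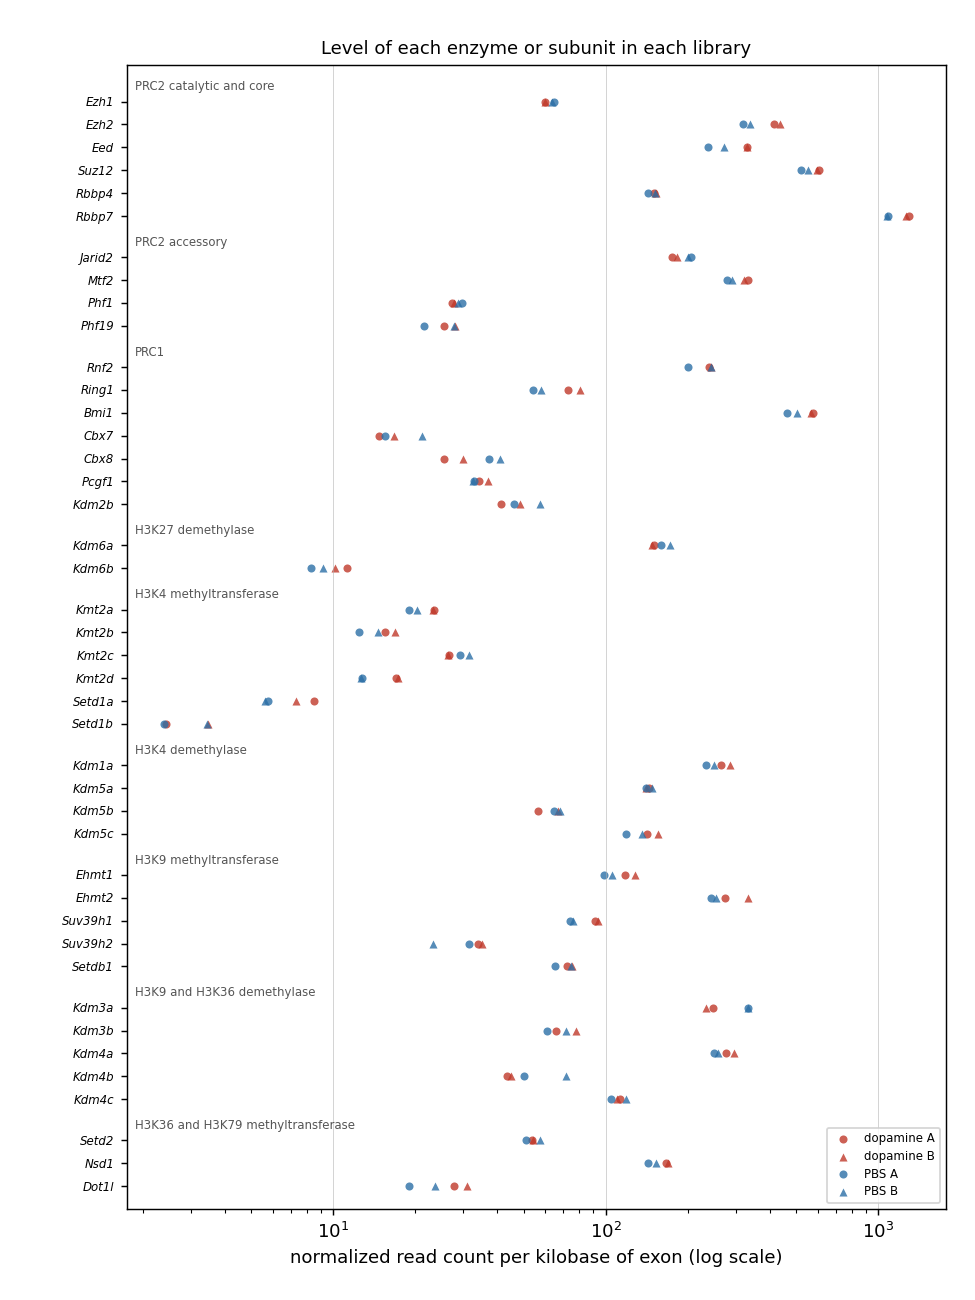
Normalized read count per kilobase of merged exon (x axis, log scale) of each member in each library, grouped by role, with dopamine libraries in red and PBS libraries in blue. Levels span 2.39 (Setd1b in PBS A) to 1293 (Rbbp7 in dopamine A), and the distance between groups is small beside that between genes.

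Other genes of the same machinery, in 6 lists of 122 genes of which 120 were measured, also gave counts that changed with the scaling. Of these, 30 rose and 7 fell with limma (median log2 fold change 0.05), against 12 and 32 after rescaling (median -0.14). Of the 120, 100 were abundant, and 39.1% of all abundant genes were called higher and 7.90% lower (18.7% and 18.8% after rescaling). The list counts that follow are to be read against those shares. Of 31 other Polycomb genes 5 rose and 3 fell, and 2 and 7 after rescaling. Aebp2, which with Jarid2 forms one version of PRC2, had 4027 and 3989 normalized counts with dopamine against 2983 and 2957 with PBS (log2 fold change 0.43, adjusted p = 8.75e-07 by limma, 0.24 after rescaling). Pcgf6 of a variant PRC1 rose (0.55), while Pcgf5 of another variant fell (-0.47), with 1244 and 1209 with dopamine against 1666 and 1723 with PBS. The PRC1 scaffold subunit Phc3 fell too (-0.51). These 4 kept their direction and call after rescaling.

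Arginine methyltransferases and their partner Wdr77 had the highest median of the 6 lists. Of 10 genes 8 rose and 1 fell, with a median log2 fold change of 0.46, or 0.27 after rescaling, when 3 rose and 1 fell. Prmt5, which writes symmetric dimethylarginine and is needed for T cell proliferation, had 1735 and 1874 normalized counts with dopamine against 1170 and 1257 with PBS (0.57, adjusted p = 1.25e-07 by limma). Prmt1, the main asymmetric enzyme, had 1038 and 1160 with dopamine against 615 and 779 with PBS (0.66). Prmt7 (0.63) and Prmt3 (0.42) rose as well, and Prmt3 lost its call after rescaling (0.22). In these 4 genes each dopamine library was above both PBS libraries.

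Of 24 other lysine methyltransferases 5 rose and 1 fell (4 and 6 after rescaling), led by Smyd5 (log2 fold change 0.62), Prdm1 (1.21), Setd6 (0.56) and Smyd2 (0.54). Prdm1, better known as the transcription factor Blimp-1, had 78.7 and 80.6 normalized counts with dopamine against 23.8 and 48.3 with PBS. Its PBS values rest on 14 reads in PBS A and 63 in PBS B, and the change was 0.90 in edgeR with TMM. Of 15 other lysine demethylases 3 rose and 0 fell (2 and 4 after rescaling). Riox2, a nucleolar oxygenase, had 467 and 506 with dopamine against 250 and 273 with PBS (0.89), and its relative Riox1 was at 0.62. The other one, Kdm4d, rests on 3 and 7 reads in the PBS libraries and lost its call after rescaling. Of 23 partners of the H3K4 writers and of other methyltransferases 5 rose and 1 fell, with Wdr5 (0.41), Ash2l (0.31) and Mllt1 (0.39) higher and Mllt3, a reader found with Dot1l, lower (-0.35). After rescaling 0 rose and 8 fell, and Wdr5 (0.22), Ash2l (0.12) and Mllt1 (0.19) lost their calls. Of 17 readers of histone methylation 4 rose and 1 fell, with Cdyl2 (0.65), Mphosph8 (0.42) and Ing5 (0.36) higher and Phf6 lower (-0.36). After rescaling 1 rose and 6 fell, and Mphosph8 (0.23) and Ing5 (0.17) lost their calls.

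Cell cycle genes are given beside these values because Ezh2 and Suv39h1 are known to be more abundant in dividing cells. Of 32 such genes 9 rose and 2 fell with limma (median log2 fold change 0.14), and 2 rose and 9 fell after rescaling. Their summed level was 98163 and 102243 normalized counts with dopamine against 100711 and 100884 with PBS, with overlapping groups. Mki67 was lower, at 11467 and 11737 with dopamine against 15404 and 14330 with PBS (-0.36, adjusted p = 1.23e-06 by limma), while Ccne1 (0.43), Ccnb1 (0.32) and Plk1 (0.59) were higher. Ccnb1 lost its call after rescaling (0.13). Of 22 loci named as Polycomb targets in T cells or other tissues, 12 rose and 0 fell, and 11 rose and 0 fell after rescaling. Only 9 of the 22 were abundant. Over all genes 14.3% were called higher and 7.00% lower, or 6.90% and 12.1% after rescaling. Those with the smallest p were Il4 (2.19), Il13 (1.61), Ifng (1.99) and Tbx21, the Th1 lineage factor, which had 1237 and 1360 with dopamine against 685 and 641 with PBS (0.97). That list was written with earlier results of these data known, so its direction is not independent evidence.

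**Figure D4:**
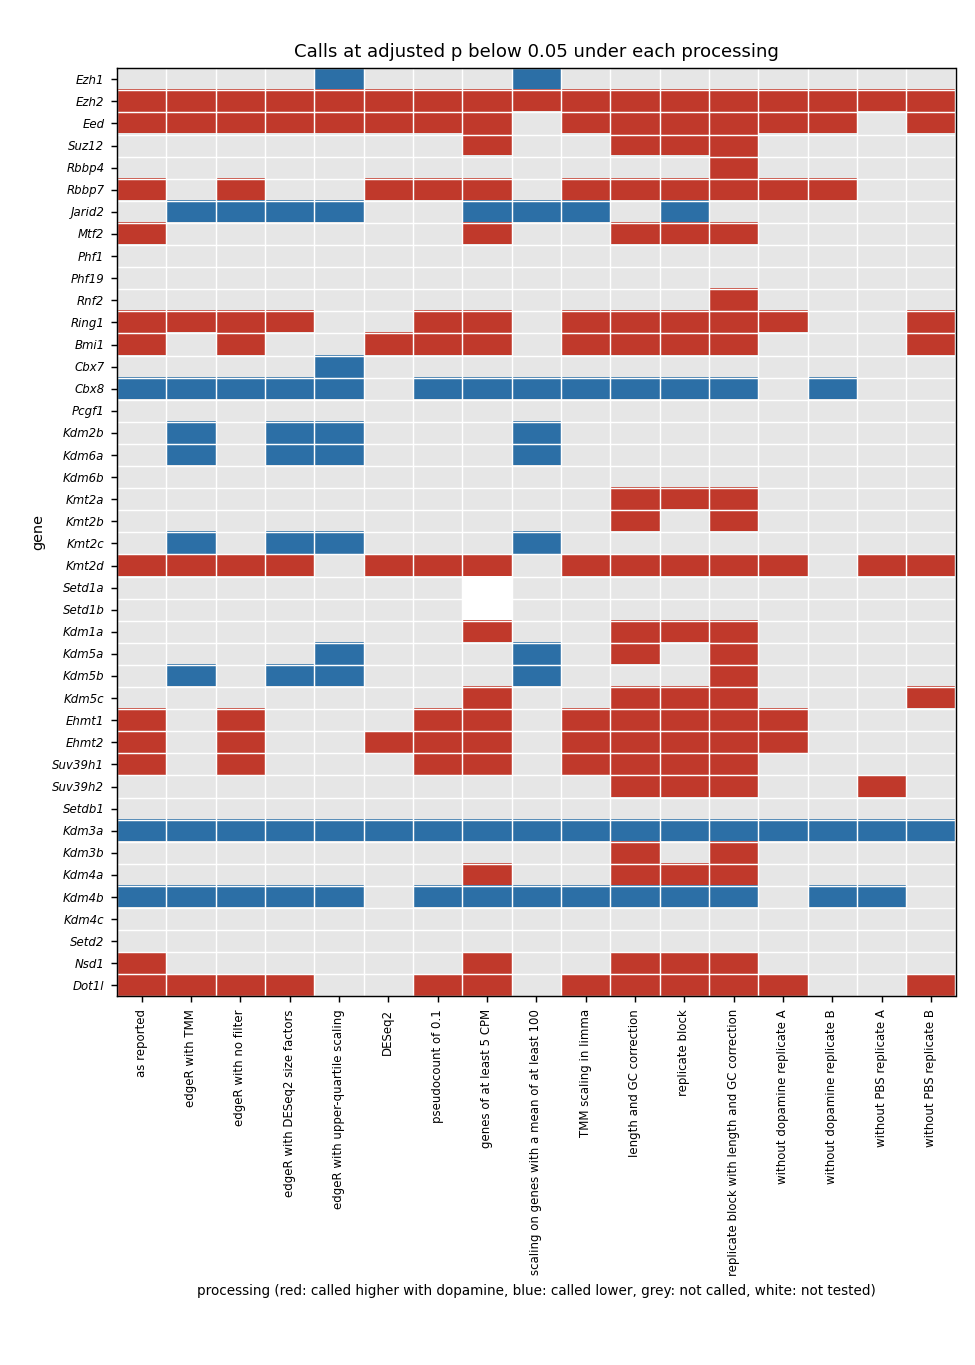
Calls at an adjusted p below 0.05 for each member (rows) in the main test and under each of 16 other ways of processing (columns), red for higher with dopamine, blue for lower, grey for not called and white for not tested. Ezh2 is red and Kdm3a blue throughout, while the other 13 called members each lose the call in at least 1 column.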

How the data were processed

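Per the labels' protocols, total RNA was isolated and turned into TruSeq stranded mRNA libraries. The submitters' processing notes name the mm10 build, TopHat2 2.0.13, HTSeq 0.6, R 3.6.2, FastQC 0.11.2 and DESeq2. The gene annotation and the counting strand were not given in the sources used here. The deposited signal values are read counts per gene divided by 1 size factor per library, and 100% of them were whole multiples of 1 read (tolerance 0.01). The authors' deposited table also holds DESeq2 log2 fold changes, Wald scores and p-values. Spreadsheet handling had turned 26 gene names into dates. Columns of other samples numbered 0.

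Column names gave the group but not which titled sample, so libraries are called A and B, and replicates were not paired. Replicates differed beyond sampling noise, with a chi-square per degree of freedom of 5.67 for dopamine and 3.41 for PBS over 8492 genes. Differences were tested in R 4.3.3 by limma 3.58.1 (trended prior variance), applied to log2(value + 1) of 26207 genes without a filter. Its prior degrees of freedom were 42.4, so p-values rest mostly on the spread pooled over genes. The script was tested on simulated data first. The 16 alternatives used edgeR 4.0.16 and DESeq2 1.42.0 on recovered reads, other scalings, pseudocounts and filters, a length and GC correction over 11384 genes, a replicate block and leaving out each library. Locations and merged exon lengths are from GENCODE on mm10. Promoters are from RefSeq (GRCm38.p6), where 34 of 42 members matched.

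Members and gene lists were chosen with earlier results of these data known. All members are named, and from each other list up to 4 genes with the smallest p.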

Additional observations from a re-analysis of the deposited data

How the results depend on the processing

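With 2 libraries a group and 5717408 reads in PBS A, small changes in genes of few reads were not detectable. Over the 42 members' log2 fold changes and the 16 alternatives, only Ezh2 and Kdm3a kept their call throughout, and 13 of the 15 called members lost it at least once. Members called higher numbered 12 in the main test, 5 with edgeR and TMM, 5 with edgeR and DESeq2 size factors, 2 with edgeR and upper-quartile scaling, 6 with DESeq2, 1 after rescaling on abundant genes, and 21 with the length and GC correction. Members called lower numbered 3 in the main test and, in the same settings up to rescaling, 8, 8, 11, 1 and 10. Without single libraries 3 to 8 were higher and 1 to 3 lower. The members' median log2 fold change was 0.14, against 0.038, 0.039 and -0.045 with edgeR in the same 3 scalings, 0.12 with TMM in limma and -0.051 after rescaling, and 0.12 to 0.23 without single libraries. Of other genes of the machinery, 30 were higher and 7 lower. The number higher was 16 with upper-quartile scaling, 12 after rescaling, 46 with the length and GC correction and 14 to 25 without single libraries. The number lower was 17 with TMM, 16 with DESeq2 size factors, 34 with upper-quartile scaling and 32 after rescaling. DESeq2 called 3261 of all genes, against 5577 in the main test, and leaving out a library gave 2914 to 4299. Kdm5a turned to 0.17 with the length and GC correction, and Nsd1 to -0.011 with upper-quartile scaling and -0.014 after rescaling. The cause of these differences was not tested. Column numbers are shared between groups, and deviations of same-numbered libraries correlated at 0.21 over 8492 genes. The labels do not explain the numbers and there are only 2 pairs, so pairing is neither shown nor excluded. With a replicate block 18 members were higher and 4 lower (17.7% and 9.05% of all genes), and 6999 genes were called. The members it added were Suz12, Kmt2a, Kdm1a, Kdm5c, Suv39h2 and Kdm4a, higher, and Jarid2, lower. With the replicate block and the length and GC correction 24 members and 54 other genes of the machinery were higher, and Kdm5a stood at 0.17 and Kdm5b at 0.16. That fit called 6012 of all genes, and edgeR with DESeq2 size factors called 5194. The share of all genes called in each direction was not computed for either.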
